A study of Mus musculus with 160 samples.

Results

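The genes described here are Trp53, which encodes p53, its regulators Mdm2 and Mdm4, and 7 genes that p53 is known to induce, Cdkn1a, Ccng1, Zmat3, Sesn1, Trp53inp1, Ak1 and Tnfrsf10b. They were taken by name from the deposited expression table, in which each of the 10 had 1 row of its own, out of 22866 distinct gene names. RNA was measured in single stromal cells of mouse bone marrow, 78 from old mice (24 months by the sample labels, 2 years by the protocol) and 82 from young mice (9 weeks by the labels, 10 weeks by the protocol), all of strain C57BL/6J. At both ages the sort kept cells with the leptin receptor and CD140a (the platelet-derived growth factor receptor alpha) and without CD45, Ter119 and CD31, marks of blood, red and endothelial cells. Although the series title concerns loss of p53, the labels name no p53 allele and no treatment for either age. They also name no animal, so each age counts as 1 sample, no difference between ages has a replicate check, and no test was made.

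p53 is a transcription factor held at low levels in unstressed cells, where Mdm2, a ubiquitin ligase, marks it for degradation and Mdm4, a relative of Mdm2, blocks its activity. DNA damage and other stress free p53, which then binds paired sites in DNA and raises its targets, among them Mdm2 itself and the cell cycle inhibitor p21, the product of Cdkn1a. p53 protein is controlled largely after transcription, so the RNA of Trp53 is a poor guide to its activity, and target RNA is the usual readout. In mouse mesenchymal cells p53 is known as a restraint on growth and on sarcoma formation.

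p53 is known to bind DNA upstream of Cdkn1a. RefSeq gives 13 promoter windows of 300 bases (250 before a transcript start and 50 after it) for 7 of the 10 genes on build GRCm38.p6, which is not the build of the expression table (mm9). The windows were searched on both strands, where it reads the same, for CATGNNNNNNCATG, the cores of 2 p53 half-sites set side by side. It occurred in 1 of the 13 windows, that of the upstream start of Cdkn1a, and in 0.712% of all 32851 promoter windows. The looser form CNNGNNNNNNCNNG was in 11 of the 13, but also in 70.2% of all windows. Both Cdkn1a windows are shown because Cdkn1a is the gene whose share of cells differed most between the ages. They lie on the plus strand, and capitals mark the match, which begins 48 bases before the start.
Cdkn1a upstream start, chr17:29090729-29091028: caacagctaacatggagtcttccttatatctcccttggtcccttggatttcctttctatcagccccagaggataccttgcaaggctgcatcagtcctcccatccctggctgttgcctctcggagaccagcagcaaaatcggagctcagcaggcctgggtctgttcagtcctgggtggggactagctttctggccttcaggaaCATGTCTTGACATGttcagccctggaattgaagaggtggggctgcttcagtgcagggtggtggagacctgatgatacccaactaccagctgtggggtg
Cdkn1a downstream start, chr17:29093519-29093818: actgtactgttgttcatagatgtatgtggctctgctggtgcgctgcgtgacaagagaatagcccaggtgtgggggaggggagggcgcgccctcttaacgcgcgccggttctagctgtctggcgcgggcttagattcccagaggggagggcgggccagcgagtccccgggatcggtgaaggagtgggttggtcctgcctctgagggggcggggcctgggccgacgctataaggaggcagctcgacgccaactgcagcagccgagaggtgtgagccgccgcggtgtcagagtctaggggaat
A match is a run of letters and not evidence of binding, and the expression table does not say which start was used.

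Values are FPKM, fragment numbers corrected for transcript length and for the sequencing depth of the cell, and a gene is called listed in a cell at 1 FPKM or more. The table holds no counts, so the depth of each cell is unknown, and an FPKM of 0 can be a failed estimate. Gapdh, used by nearly all cells, was at 0 in 91 of 160 cells, while Actb and B2m were listed in all 160. Old cells listed a median of 1160 named genes (193 to 2779) and young cells 1114.5 (129 to 2129). Lepr, the gated receptor, was listed in 91.0% of old and 95.1% of young cells, Pdgfra in 38.5% and 34.1% of the same groups, and none of 10 blood, red cell and endothelial markers in any cell. Of 15 markers of bone, cartilage, mural, Schwann and other fibroblast cells, at least 3 were listed together in 1 old and 0 young cells. The ages also differed in sex-linked RNA: Xist was listed in 54 old and 0 young cells, and Y-linked RNA in 0 old and 34 young cells. The protocol counts the wells of each age separately. Age, sex-linked RNA and capture therefore cannot be told apart in any comparison below.

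Each of the 10 genes was listed in a minority of cells. Over both ages Mdm4 was listed most often, in 45 of 160 cells (28.1%, exact 95% interval 21.3 to 35.8), followed by Tnfrsf10b (20%), Ak1 and Cdkn1a (16.9% each), Mdm2 (15%), Trp53 (9.38%), Ccng1 (7.50%), Trp53inp1 (5.63%), Sesn1 (4.38%) and Zmat3 (2.50%, interval 0.685 to 6.28). The intervals of neighbours in this order overlapped in every case. The place of Cdkn1a depended on age: in old cells its share (5.13%) equalled that of Sesn1 and was above that of Zmat3 alone, and in young cells (28%) it was second to Mdm4 (29.3%). Intervals here and below are exact Clopper-Pearson 95% intervals that cover counting error only. In the plot of values in listing cells, most genes spread widely within an age.

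**Figure D1:**
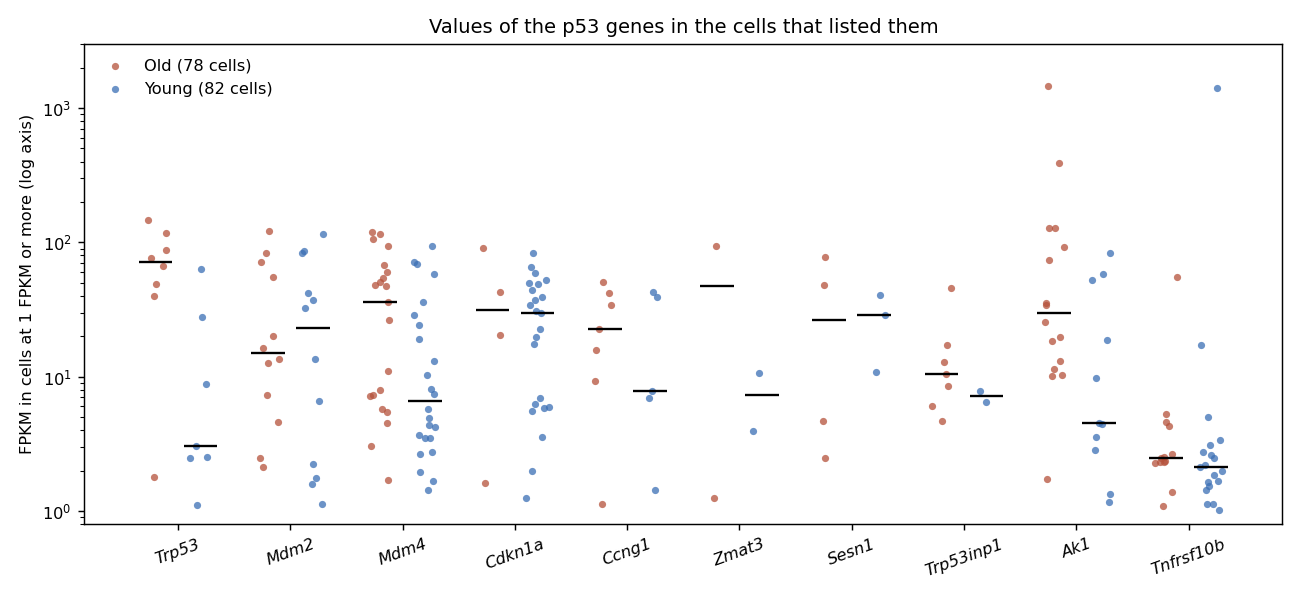
FPKM of each gene (log axis) in the cells that listed it, with old cells left of young cells and a bar at the median of the listing cells. Cdkn1a has 4 points in old and 23 in young cells with medians of 31.5 and 29.9 FPKM, and 1 point each of Ak1 in old cells (1459 FPKM) and Tnfrsf10b in young cells (1404 FPKM) stands above the rest of its gene.

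Cdkn1a, which encodes the cyclin-dependent kinase inhibitor p21 and arrests the cell cycle, was the gene whose share of cells differed most. Of the 78 old cells 4 listed it (5.13%, interval 1.41 to 12.6), and of the 82 young cells 23 did (28%, interval 18.7 to 39.1), a difference of -22.9 percentage points, old minus young. The 4 old cells had 91.0, 42.7, 20.4 and 1.61 FPKM. The 23 young cells ran from 1.26 through a median of 29.9 to 83.5 FPKM. The levels in listing cells thus covered about the same range at both ages, and it was the number of such cells that differed. At 10 FPKM or more there were 3 old (3.85%, interval 0.8 to 10.8) and 15 young cells (18.3%, interval 10.6 to 28.4). At any FPKM above 0 there were 6 old (7.69%) and 41 young cells (50%), so 2 old and 18 young cells held a trace below 1 FPKM. Over all genes, 11.3% had a share of cells above 0 that was lower by 10 points or more in old cells, and 4.54% had such a difference at 10 FPKM.

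The scarcity of Cdkn1a in old cells was seen in cells with many and with few genes. Among the cells above the median of 1128.5 listed genes, Cdkn1a was in 3 of 40 old (7.50%) and 13 of 40 young cells (32.5%). Among the others it was in 1 of 38 old (2.63%) and 10 of 42 young cells (23.8%). Of the 10 genes 9 were listed in 5% of the cells of either age, and Cdkn1a was the one whose share differed by 10 points or more. Over all 6519 genes listed that often, 11% differed by as much, 4.43% toward old and 6.55% toward young cells, and 38 genes (0.583%) had a difference as low as or lower than that of Cdkn1a. With 1 gene of 9 past that size, the group as a whole lay near this background.

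**Figure D2:**
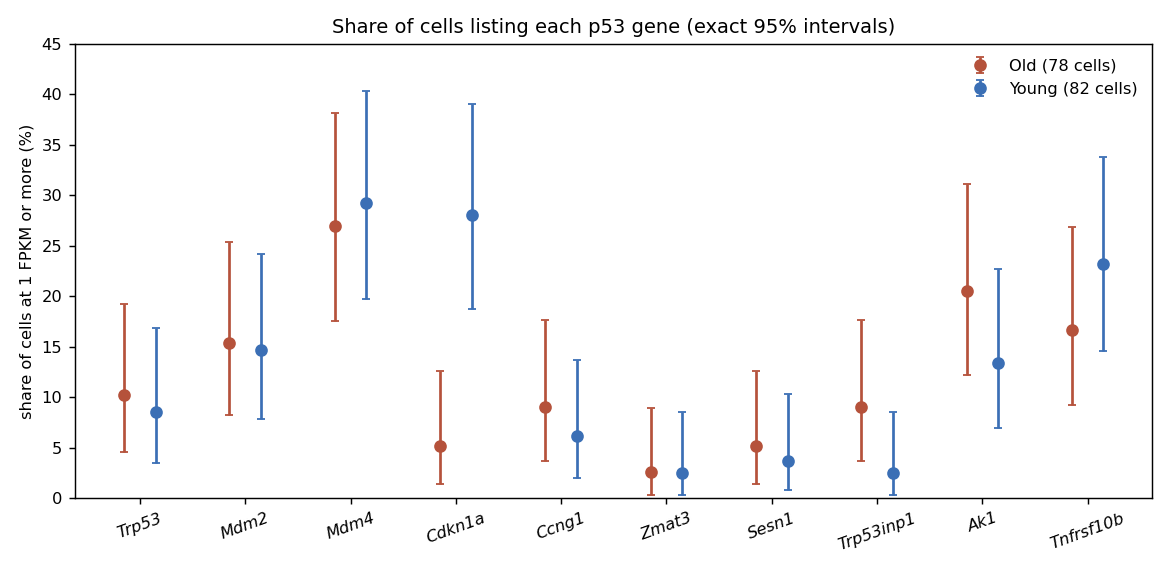
Share of cells at 1 FPKM or more for each gene, old left of young, with exact 95% intervals for counting error (78 old and 82 young cells). Cdkn1a has intervals of 1.41 to 12.6 in old and 18.7 to 39.1 in young cells. How many of all genes have intervals of the ages apart was not counted.

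Trp53 itself was rare at both ages, in 8 old cells (10.3%, interval 4.53 to 19.2) and 7 young cells (8.54%, interval 3.50 to 16.8). Its levels in those cells were unlike. The old cells had 146, 117, 88.3, 76.8, 66.9, 48.7, 40 and 1.80 FPKM, and the young cells had 63, 27.8, 8.83, 3.03, 2.53, 2.46 and 1.11 FPKM. All but 1 of the old values lay above all but 1 of the young values, and 7 old (8.97%, interval 3.68 to 17.6) and 2 young cells (2.44%, interval 0.297 to 8.53) reached 10 FPKM. The mean over all cells was 7.50 FPKM in old and 1.36 FPKM in young cells, a log2 ratio of 1.85 with a pseudocount of 1. Without the highest cell the log2 ratio was 1.51. The difference of mean log2(FPKM + 1), in which high values count for less, was 0.30.

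Both p53 inhibitors were listed about equally often at the 2 ages. Mdm2, the ligase that degrades p53 and is itself a p53 target, was in 12 old (15.4%, interval 8.21 to 25.3) and 12 young cells (14.6%, interval 7.80 to 24.2). Its listing cells ran from 2.13 through a median of 15 to 121 FPKM in old and from 1.13 through 22.9 to 115 FPKM in young cells, so the ranges overlapped nearly in full. Mdm4, the inhibitor that lacks ligase activity of its own, was in 21 old (26.9%, interval 17.5 to 38.2) and 24 young cells (29.3%, interval 19.7 to 40.4). Its median in listing cells was 35.8 FPKM in old and 6.59 FPKM in young cells, with highest values of 118 and 94.7 FPKM. Means were 11.3 FPKM in old and 5.91 FPKM in young cells, and no 1 cell held more than 19.5% of an age's Mdm4.

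Of the other 6 targets Ak1, Trp53inp1, Ccng1, Sesn1 and Zmat3 had a higher share in old cells, by 7.10, 6.54, 2.88, 1.47 and 0.13 points, and Tnfrsf10b a lower one, all with overlapping intervals. Ak1, an adenylate kinase that exchanges phosphate between adenine nucleotides, was in 16 old (20.5%, interval 12.2 to 31.2) and 11 young cells (13.4%, interval 6.89 to 22.7). The listing cells of Ak1 had 1.72, 29.9 and 1459 FPKM as lowest, median and highest values in old cells, and 1.17, 4.52 and 83.1 FPKM in young cells. At 10 FPKM or more Ak1 was in 15 old (19.2%, interval 11.2 to 29.7) and 4 young cells (4.88%, interval 1.34 to 12), a difference past 10 points that 3.98% of 4251 genes listed at that level showed toward old cells. Ak1 was the 1 member to do so in that direction at 10 FPKM.

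Trp53inp1, a nuclear protein that promotes p53 activity and autophagy, was in 7 old cells (8.97%, interval 3.68 to 17.6) at 45.7, 17.1, 12.9, 10.5, 8.50, 6.04 and 4.65 FPKM. In young cells it was in 2 (2.44%, interval 0.297 to 8.53) at 7.86 and 6.43 FPKM, inside the range of the old values. Sesn1, a sestrin that restrains growth signalling through mTORC1, was in 4 old cells (5.13%) at 77.2, 47.9, 4.69 and 2.48 FPKM and in 3 young cells (3.66%) at 40.8, 28.7 and 10.8 FPKM. The young values of Sesn1 lay inside the old range, and its difference in share turned to between -2.06 and -1.09 points, old minus young, in 3 alternatives.

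Ccng1, the cyclin G that recruits a phosphatase to Mdm2, was in 7 old cells (8.97%) at 50.8, 42.1, 34, 22.8, 15.8, 9.21 and 1.12 FPKM. In young cells Ccng1 was in 5 (6.10%) at 42.5, 38.9, 7.76, 6.98 and 1.44 FPKM, all within the old range. Zmat3, a zinc finger protein that regulates splicing, was the rarest, with 93.8 and 1.24 FPKM in 2 old cells and 10.6 and 3.93 FPKM in 2 young cells. Tnfrsf10b, the receptor of the death ligand TRAIL, was the most widespread of the 10 genes at low values. It was above 0 in 52 old (66.7%) and 63 young cells (76.8%), at 1 FPKM or more in 13 old (16.7%, interval 9.18 to 26.8) and 19 young cells (23.2%, interval 14.6 to 33.8), and at 10 FPKM in 1 old and 2 young cells. The median of its listing cells was 2.49 FPKM in old and 2.13 FPKM in young cells. Mdm4 was above 0 in 38 old (48.7%) and 44 young cells (53.7%), and in 17 and 20 of these it was below 1 FPKM.

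Single cells set the mean of several of these genes. Of the FPKM of Tnfrsf10b summed over both ages, 89.3% came from young cell 31, of that of Zmat3 84.9% from old cell 41, and of that of Ak1 54.2% from old cell 70. These were 3 of 10 genes, and 2 of the 9 listed in 5% of cells, where 20.4% of all such genes had over 50% of their FPKM in 1 cell. The 3 cells listed 426, 748 and 423 genes, fewer than the median of either age, and their summed FPKM was 22, 4.06 and 2.45 times the median of all cells. The part of these features in the high values was not tested. For Cdkn1a, Mdm2 and Mdm4 the highest cell held 11%, 14.4% and 8.68%.

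Within an age the picture was uneven. For Cdkn1a the highest cell held 58.1% of the FPKM of old cells and 12.4% of that of young cells. For Trp53 it held 24.9% in old and 56.7% in young cells. How far ratios of means rested on these cells differed between genes. The log2 ratio, old over young, was -3.03 for Tnfrsf10b, with means of 1.31 FPKM in old and 17.9 FPKM in young cells, 0.35 without young cell 31, -0.23 with every cell rescaled to the same summed FPKM, and -0.12 as a difference of mean log2(FPKM + 1). For Ak1 it was 3.04, with means of 31.4 FPKM in old and 2.94 FPKM in young cells, and 1.81 without old cell 70. For Cdkn1a it was -1.62, with means of 2.01 FPKM in old and 8.22 FPKM in young cells, and -2.32 without old cell 39. In all, 4 of 9 genes had means at least 2-fold apart, as had 39.1% of all genes, so the ratios of these genes were about as often large as those of any gene in this table.

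**Figure D3:**
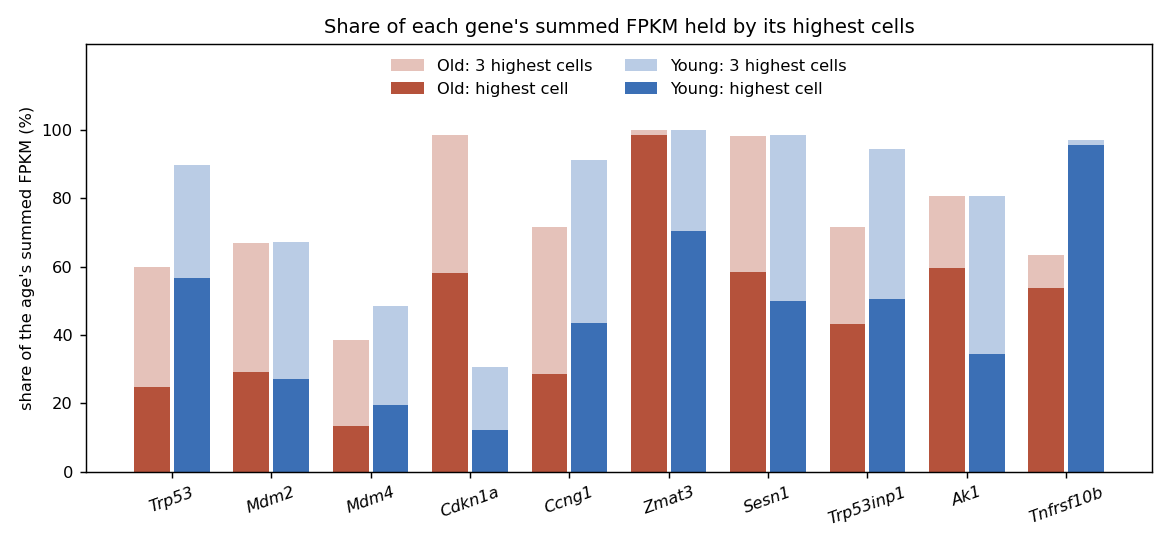
Share of each gene's summed FPKM within an age that the highest cell (dark) and the 3 highest cells (light) held, old left of young. The 3 highest cells held 98.4% of Cdkn1a in old cells and 30.8% in young cells, and 1 cell held 95.5% of Tnfrsf10b in young cells.

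Co-listing was counted over 8 targets, the 7 induced genes and Mdm2. At least 1 was listed in 38 old (48.7%, interval 37.2 to 60.3) and 51 young cells (62.2%, interval 50.8 to 72.7). At least 2 were listed in 19 old (24.4%, interval 15.3 to 35.4) and 21 young cells (25.6%, interval 16.6 to 36.4), and at least 3 in 5 old (6.41%) and 3 young cells (3.66%). The ages thus differed little in the share of cells with several targets, although fewer old cells had Cdkn1a. If the genes were listed independently of each other, their shares would give 15.4 old and 19.4 young cells with at least 2 targets.

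Old cell 39 listed 6 of the 8 targets, more than any other cell. It had 127 FPKM of Ak1, 91.0 of Cdkn1a, 4.65 of Trp53inp1, 2.29 of Tnfrsf10b, 2.13 of Mdm2 and 1.24 of Zmat3, with Trp53 at 0 and 1346 listed genes. Young cells 20 and 76 each listed 4. Young cell 20 had 86.0 FPKM of Mdm2, 42.5 of Ccng1, 10.8 of Sesn1 and 1.26 of Cdkn1a, and young cell 76 had 65 FPKM of Cdkn1a, 40.8 of Sesn1, 37 of Mdm2 and 1.13 of Tnfrsf10b. Trp53 was at 0 in both of these cells too, and all 3 cells had Mdm2 and Cdkn1a together.

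**Figure D4:**
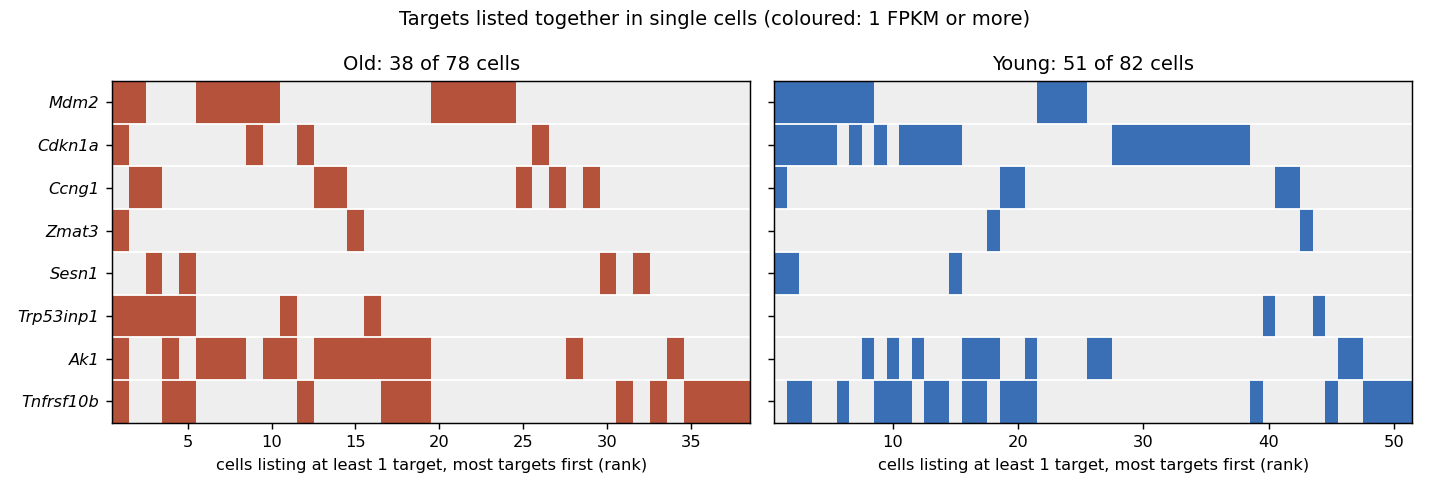
Cells that listed at least 1 of the 8 targets, as columns ordered by the number of targets (38 old cells in the left panel, 51 young cells in the right), with a coloured field where the target was at 1 FPKM or more. Ak1 and Tnfrsf10b have the most coloured fields in old cells (16 and 13), and Cdkn1a and Tnfrsf10b in young cells (23 and 19).

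The partners of Cdkn1a differed from gene to gene. In young cells Cdkn1a was listed with Mdm2 in 6 cells, where the product of both shares gives 3.37, and with Tnfrsf10b in 6 (5.33 by the product). All 3 young cells with Sesn1 also had Cdkn1a (0.841 by the product), and young cells 20 and 76 were among them. With Ak1 it shared 1 young cell, fewer than the 3.09 of the product, and with Trp53inp1 and Zmat3 it shared 0. Among pairs of the 8 targets, the most frequent in old cells were Mdm2 with Ak1 (5 cells, 2.46 by the product), Ak1 with Tnfrsf10b (5 cells, 2.67) and Trp53inp1 with Ak1 (4 cells, 1.44). Old cell 39 was in each of these old pairs. Products taken separately in old cells above and below the median gene number gave 3.90, 3.06 and 2.15 for them. All these counts are of few cells, and the pairs named here were chosen after their values were seen.

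Summed over the 28 pairs of targets, old cells had 41 joint listings, where the products give 22.6, and young cells had 33, where they give 28.9. Cells with more targets also listed more genes: the median was 1354 listed genes in old cells with at least 2 targets and 713 in those with 0, and 1349 and 895 in young cells. With the products taken separately in cells above and below the median gene number, they came to 28.8 in old and 30.8 in young cells. Without old cell 39 the old sum was 26, with 23.1 by the products taken separately, and without young cells 20 and 76 the young sum was 21, with 24.2. The excess in old cells thus lay mostly in 1 cell. In cells above the median gene number, at least 2 targets were listed in 16 of 40 old (40%) and 14 of 40 young cells (35%). In the others they were in 3 of 38 old (7.89%) and 7 of 42 young cells (16.7%).

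**Figure D5:**
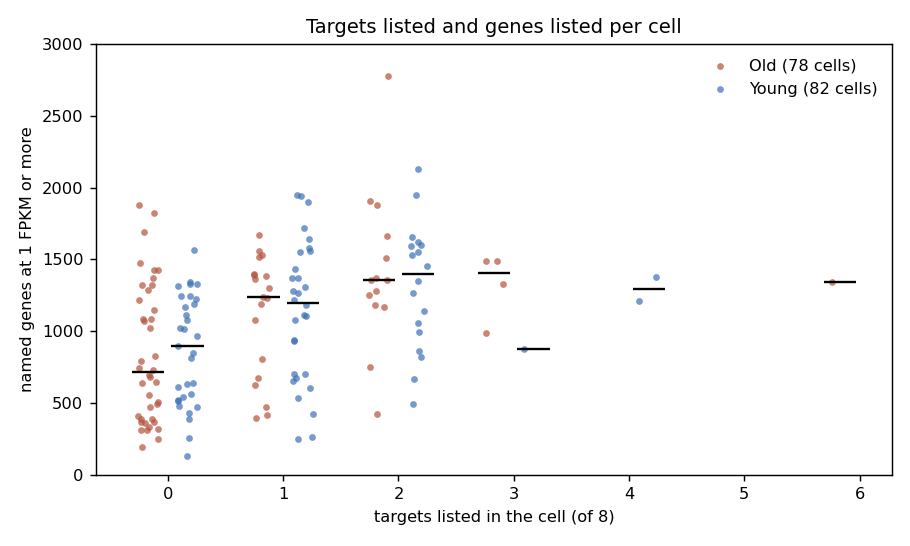
Named genes at 1 FPKM or more in each cell against the number of the 8 targets it listed, old left of young, with a bar at each median. Cells with 0 targets had medians of 713 genes in old and 895 in young cells, and those with at least 2 had 1354 and 1349.

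Targets were listed in cells with and without Trp53. Of the 8 old cells with Trp53, 7 listed at least 1 target (87.5%, interval 47.3 to 99.7), against 31 of the 70 old cells without it (44.3%, interval 32.4 to 56.7). In young cells the shares were 4 of 7 (57.1%, interval 18.4 to 90.1) with Trp53 and 47 of 75 (62.7%, interval 50.7 to 73.6) without. Old cells with Trp53 also listed more genes (median 1457.5) than those without (1074), and so did young cells (1557 and 1079). All 8 old cells with Trp53 were among the 40 old cells above the median gene number. Of those 40 cells 28 listed at least 1 target (70%, interval 53.5 to 83.4). Its joint listings were with Ak1 in 5 old cells and 1 young cell, with Mdm4 in 3 old and 5 young cells, and with Mdm2 in 3 old and 2 young cells. What the number of listed genes contributes was not tested, and over all 6519 genes 92.7% were listed more often in cells above the median gene number.

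Of 36 further genes listed as p53 targets, 35 were found by name and 14 were listed in 5% of the cells of either age, 7 of them more often in old and 7 more often in young cells. Btg2, an antiproliferative gene that p53 induces, was the 1 of 14 past 10 points, where 11% of all genes were, in 20.5% of old (12.2 to 31.2) and 31.7% of young cells (21.9 to 42.9). Toward old cells lay Rrm2b, the p53-inducible ribonucleotide reductase subunit (12.8% of old and 4.88% of young cells), Cd82, a membrane tetraspanin (11.5% and 3.66%), and Gadd45a, a growth arrest gene (12.8% and 6.10%). Ercc5, a repair nuclease, was in 0 old cells (exact upper limit 4.62%, while 3 cells would make 3.85%) and in 5 young cells (6.10%). The median difference of these 14 genes was -0.08 points, against 0.25 for all genes. They include Cdkn1b, which is also given with the cell cycle inhibitors below. Rrm2b, Cd82 and Ercc5 passed the filter only through the age where they were listed more often.

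Of 26 symbols of p53 regulators 25 were found and 17 passed the same filter, 5 listed more often in old and 12 more often in young cells. Their median difference was -3.63 points, against 0.25 for all genes. How all genes split by direction was not counted. A gene could pass the filter through the age where it was listed more often, as Atr, Sirt1 and Trim28 below did. Rpl11, a ribosomal protein that binds Mdm2, was in 34.6% of old (interval 24.2 to 46.2) and 48.8% of young cells (interval 37.6 to 60.1). Ep300, an acetyltransferase that acts on p53, was in 10.3% of old (interval 4.53 to 19.2) and 22% of young cells (interval 13.6 to 32.5), and these 2 of 17 were past 10 points, beside the same 11% of all genes. Atr, a kinase of the damage response, was in 0 old and 8 young cells, and Sirt1, a deacetylase of p53, in 2 old and 10 young cells. Trim28, a cofactor of Mdm2, was in 10 old and 4 young cells. By mean FPKM Rpl11 (109 in old and 45.2 in young cells) and Sirt1 (3.88 and 2.71) lay the other way. For these genes 1 cell held 46.1% and 55.8% of the FPKM summed over both ages. The means of Ep300, Atr and Trim28 lay on the same side as their shares. Cdkn2a, whose product Arf holds Mdm2 back, was in 0 cells of either age, where 3 cells would make 3.85% of old and 3.66% of young cells, both below the exact upper limits of their ages.

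The next list held 11 genes, cyclins, kinases and Pcna, whose proteins p21 binds. Of these 5 passed the filter and 0 of them differed by 10 points, beside 11% of all genes. Among them were Ccnd3, a D-type cyclin, in 7.69% of old and 15.9% of young cells, and Cdk4, its kinase partner, in 15.4% and 12.2%. The other inhibitors of the family differed by less than 10 points, with overlapping intervals. The differences were -3.94 points for Cdkn1b and -4.07 for Cdkn1c, old minus young, and how far they differ from Cdkn1a was not tested. Cdkn1b, which encodes p27, was in 19.2% of old (interval 11.2 to 29.7) and 23.2% of young cells (interval 14.6 to 33.8), and Cdkn1c, which encodes p57, was in 16.7% (interval 9.18 to 26.8) and 20.7% (interval 12.6 to 31.1). The pocket protein gene Rbl1 was in 8 old and 2 young cells. Of 8 proliferation genes 7, Mki67 and Top2a among them, were in 0 cells.

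Likeness was measured by Spearman correlation of log2(FPKM + 1) across cells within an age, over 3189 genes listed in 10% of cells. Closest to Cdkn1a over the 82 young cells were Mapk8, the stress kinase JNK1 (0.45), Pbld1 (0.44) and Fam120a (0.43). In old cells Cdkn1a was in too few cells for this. Closest to Tnfrsf10b, averaged over both ages, were Dclre1c, the repair nuclease Artemis (0.57), A630089N07Rik (0.54) and Gm15645 (0.54). For Mdm2, Mdm4 and Ak1 the highest were 0.38 with Ube2v2, 0.35 with Cdc42ep3 and 0.39 with Tapbpl. These are the highest of many correlations across sparse values of cells that share an amplification and differ in the number of genes listed, so they describe the cells and carry no p.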

How the data were processed

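Cells were captured on a microfluidic chip (Fluidigm C1) and amplified with SMARTer chemistry, per the labels' protocols. These count 96 wells for each age and name 79 old and 83 young wells as holding 1 intact cell, of which 78 and 82 were analysed here. Wells with several cells were set aside by microscopy, so no doublet caller was run. The authors deposited 1 table of FPKM. Cufflinks 2.1.1 and build mm9 are named in the submitters' processing notes. The aligner, the annotation, strand use and filters were not given in the sources used here. Of 31199 rows, 7751 without a gene name were left out. No 2 cells had identical columns.

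Ages came from the labels. The members and lists were chosen with earlier results of these data known. A gene counted as listed at 1 FPKM, a difference as large at 10 percentage points or 2-fold in means (pseudocount 1), and the background as genes listed in 5% of the cells of either age. Further genes were named by a fixed rule, the largest differences in share, up to 6 a list, and the text gives some of them. Likeness was ranked for members listed in 20 cells, in ages with 10 such cells. The code for the shares, the 10-point rule and the share in the highest cell was checked on resampled young cells with changes of known size put in. That is a check of the code, and how often unchanged genes passed 10 points there is not given here. An annotation of another build shows 1 gene overlapping a member's exons, AC167363.2 opposite Cdkn1a, which was not analysed here. Python 3.11.15, pandas 2.3.3 and scipy 1.17.1 were used. Alternatives were other thresholds, sets of cells, scaling and pseudocounts.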

Additional observations from a re-analysis of the deposited data

How the results depend on the processing

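The difference in share of Cdkn1a, -22.9 points, old minus young, had the same sign in the 6 alternatives that could change it (restricting to rows that name the member alone changes no value by construction). It was -42.3 points counting any FPKM above 0, -14.4 at 10 FPKM, and between -26.9 and -21.7 in the sets of cells and after rescaling. The number of members past 10 points was 1, and 2 counting any FPKM above 0 (Cdkn1a and Tnfrsf10b), at 10 FPKM (Cdkn1a and Ak1) and in cells within the interquartile range of gene number (Cdkn1a and Ak1). Counting any FPKM above 0, 11.3% of 8793 genes were lower in old cells by as much. At 10 FPKM 3.98% of 4251 genes were higher and 4.54% lower in old cells by as much. The share of all genes was not counted in the sets of cells. The difference in cells with at least 2 targets, -1.25 points, took both signs: -10.6 counting any FPKM above 0, 5.44 at 10 FPKM, 6.47 within the interquartile range and 1.62 without cells under 50% of the median gene number. The 3 members with over 50% of their FPKM in 1 cell were 1 (Zmat3) without those last cells, 2 after rescaling (Zmat3 and Trp53inp1) and without the cells whose FPKM sum exceeded the median 3-fold (Zmat3 and Ak1), 3 within the interquartile range (Trp53, Zmat3 and Sesn1), and 4 at 10 FPKM (with Trp53inp1). The share of all genes with over 50% of their FPKM in 1 cell was counted in the main setting alone (20.4%). The log2 ratio of Tnfrsf10b, -3.03, turned to 0.35 without its highest cell and was -0.23 after rescaling. Of 63 alternative values for the other 9 shares, 8 had the other sign and 2 were exactly 0, and of 50 for the log2 ratios, 5 had the other sign. The sum over pairs without the cells of most targets was added after seeing the data. No paired analysis was possible because the cell numbers are names and each age is 1 sample. The causes were not tested. FPKM carry no depth, so shares near 0 concern cells listed at 1 FPKM and not cells that express the gene.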
